A study of Homo sapiens with 24 samples.

Results

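The 70 protocadherin genes of a 26485-gene count table are described here in the human neuroblastoma line SH-SY5Y, an established cell line. Members are all rows whose symbol begins with PCDH and holds no hyphen, and 3 hyphenated antisense-type rows were left out. They divide into 57 clustered genes (15 alpha, 19 beta and 23 gamma, the last being 12 PCDHGA, 8 PCDHGB and 3 PCDHGC) and 13 non-clustered genes (5 delta-1, 5 delta-2 and 3 remaining ones). RNA was sequenced in 24 libraries, in 8 groups of 3. At 4 h the cells were untreated or treated with copper. At 24 h they were untreated, or treated with interferon gamma (IFN), with dextran-catechin (DC) or TEPA, or with DC+IFN or TEPA+IFN. DC and TEPA are copper chelators. All groups are 1 cell line without a transgene or deletion in the labels, doses are not in the labels, and no label says whether the 3 libraries of a group are separate cultures, so p-values measure the spread between libraries, which may be technical.

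Protocadherins are calcium-dependent cell surface proteins of the cadherin superfamily, abundant in the nervous system. The clustered genes lie side by side on chromosome 5. Each alpha or gamma transcript joins 1 variable exon, which encodes the whole extracellular part, to constant exons shared by its set, whereas each beta gene is a single exon with no shared part. Every variable exon has its own promoter, and a neuron uses a few of them, so that cells carry different combinations on their surface and recognise their own branches through like-with-like binding. Most clustered promoters hold a conserved sequence element with a CGCT core that is bound by CTCF, a DNA-looping protein, and DNA methylation of it silences the promoter. PCDHB1, PCDHAC2, PCDHGC4 and PCDHGC5 are known as clustered genes without that element, and the C-type genes (PCDHAC1, PCDHAC2 and the 3 PCDHGC genes) are expressed in a less random manner than the others. The non-clustered genes lie apart on several chromosomes and act in cell sorting, migration and axon growth.

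The upstream sequences are shown first because clustered promoters are known for a shared element. In RefSeq windows from 250 bases before to 50 bases after each start site (GRCh38.p14), 58 of the 70 members had an entry, in 67 windows. The 9 letters GGTGGCGCT, searched on both strands and chosen because no other 9 letters were held by more of the 52 clustered windows, were found in 13 of the 14 beta windows and in no window of another set. Since they were picked from these windows, their place in the sets is a description with no test. They occur in 0.501% of all 35116 windows of that length. PCDHB1 was the beta gene whose window lacked them: its nearest stretch is GGTGGTGCT, which differs by C6T, counted from 1 at the first G. Up to 1 mismatch to the 9 letters was found in 12.2% of all windows, so that near match is common. The lines below give 29 bases of the plus strand for 4 beta genes with the 9 letters and for PCDHB1, with the 9 letters or their nearest stretch in capitals. They lie at chr5:141100394-141100422, chr5:141121724-141121752, chr5:141187075-141187103, chr5:141223264-141223292 and chr5:141051338-141051366 in the order given.

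PCDHB3: gcgaacgcatGGTGGCGCTgttgactaag
PCDHB4: caagacgcagGGTGGCGCTgcaggctaag
PCDHB9: gaagccacaaGGTGGCGCTgcagactgaa
PCDHB14: ggagacacatGGTGGCGCTacaggataag
PCDHB1: gctagcctttGGTGGTGCTgcagttagag

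The first base of the 9 letters lies 69 bases before the start in both PCDHB3 and PCDHB14, 84 before it in PCDHB4 and 76 before it in PCDHB9, and the nearest stretch in PCDHB1 begins 26 bases before it. With IFN, PCDHB3 fell and PCDHB1 rose, and PCDHB4, PCDHB9 and PCDHB14 passed no test, as described further on. PCDHB6, which fell as well, had no entry among the windows. A link between the letters and the response was not tested.

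Library totals ran from 24569980 to 35372442 counts, of which the protocadherins took 0.0487% to 0.0638%. Of the 70 members, 63 had enough counts to test (54 clustered and 9 non-clustered). The 7 left out were PCDHGB8P, PCDHGA12, PCDHA13, PCDH19, PCDH8, PCDH11X with 1 count in all libraries together and PCDH11Y with 0. Of 13 adrenergic neuroblastoma markers, 12 averaged at least 1 CPM (counts scaled to the library total), while the summed endothelial, leukocyte and epithelial markers each stayed under 1 CPM in every library, with CD3E and KRT5 at 0. Libraries differed in base composition within groups: the median log2 deviation of genes over 60% GC minus that of genes under 40% GC ran from -1.34 in the first 4 h control library to 1.38 in the third one, and was between -0.97 and -0.37 in the 24 h control and between -0.12 and 0.90 in the IFN libraries.

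Counting reads of this family has its own limits. In the GENCODE 29 gene models, constant exons make up a median of 46.7% of the exon bases of an alpha gene and 43.8% of those of a gamma gene, while no beta or non-clustered gene shares exons. A read from a constant exon can be assigned to any gene of its set, so the level of a single alpha or gamma gene is uncertain and reads can pass between its members. Opposite-strand genes overlap the exons of 21 members, PCDH17, PCDHAC2, PCDHB1 and PCDHB3 among them, and the strand setting of the counting is not given in the sources used here.

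Levels per length show how few members carry most of the expression. On the scale of CPM per kb of the longest transcript, PCDHGC3 was the most abundant member at 28.6, with a range over libraries from 23.8 to 36.4. PCDH18, a delta-2 protocadherin, followed at 11.1. Next came PCDHB14 at 7.73, PCDHGA7 at 7.01, PCDHAC2 at 6.77, PCDHB3 at 6.12, PCDHGC4 at 5.56 and PCDHB9 at 5.22, neighbours whose ranges over libraries overlap. The leading 3 of each clustered set were PCDHAC2, PCDHAC1 (2.16) and PCDHA12 (1.5) for alpha, PCDHB14, PCDHB3 and PCDHB9 for beta, and PCDHGC3, PCDHGA7 and PCDHGC4 for gamma. At the low end of the tested members stood PCDHA9 at 0.028, PCDHA10 at 0.037 and PCDHB1 at 0.040.

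**Figure D1:**
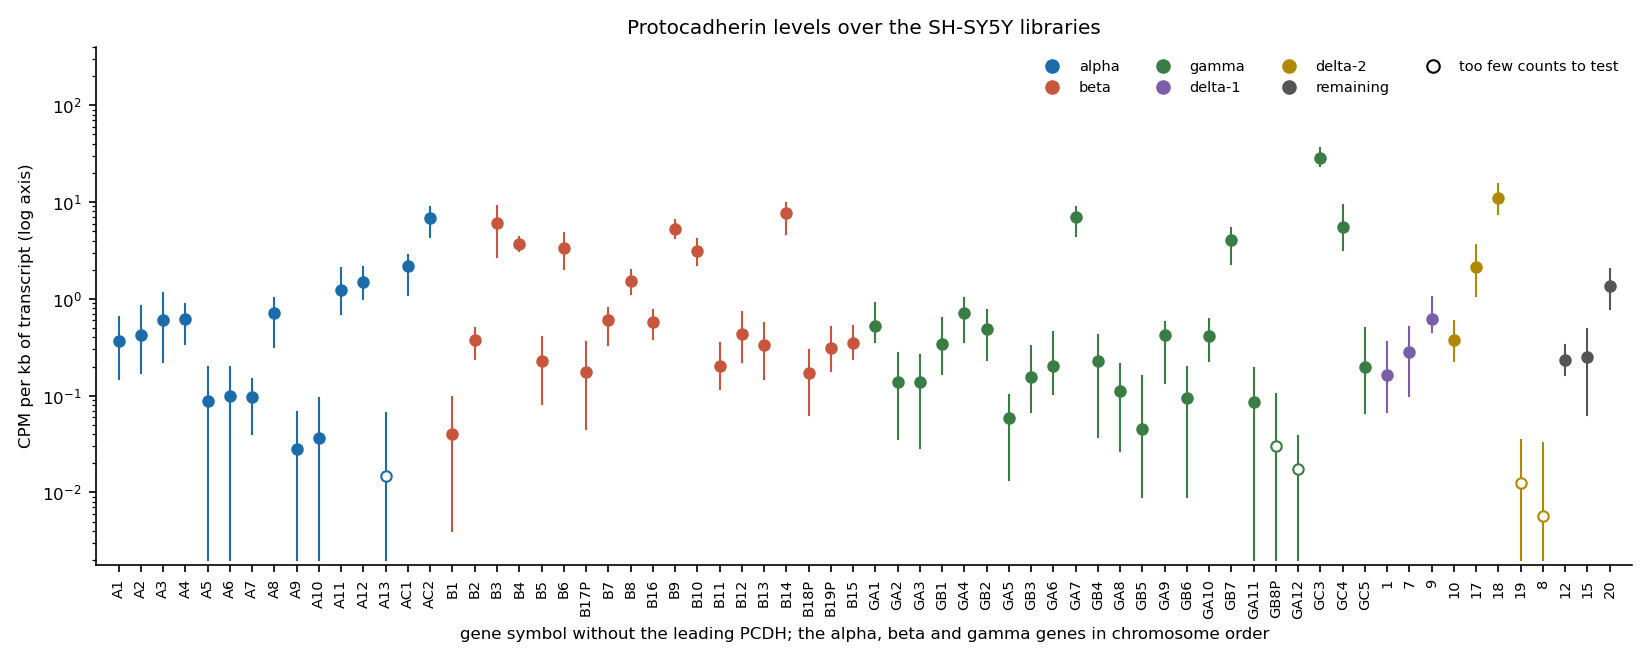
Level of 68 members in CPM per kb of the longest transcript (vertical log axis), grouped by set, with the alpha, beta and gamma genes in chromosome order. Points are means of 24 libraries, lines run from the lowest to the highest library and end at the lower edge where a library had no count, and open points had too few counts to test. PCDH11X and PCDH11Y are not drawn. PCDHGC3 stands highest at 28.6, and each set has a few high and many low members.

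IFN gave the most calls of the 11 comparisons, and in the clustered sets most of them were downward. Against the 24 h control, IFN libraries had 10 clustered genes called lower and 2 called higher of 54 tested (edgeR quasi-likelihood test, Benjamini-Hochberg adjusted p under 0.05 over 14654 genes). Of the 9 non-clustered genes tested, 1 was lower and 2 were higher. Over all genes tested, 8.8% were called lower and 10% higher, while the clustered genes were called lower at 18.5% and higher at 3.7% in this fit. The median log2 fold change was -0.42 in alpha, -0.22 in beta and -0.31 in gamma, beside 0.006 over all genes. After removal of the trend with GC content the gamma median was -0.61, and the medians of the 3 sets lay below 0 under every alternative with all libraries of the comparison. The count of 54 holds the members that passed the filter on low counts. How the members stand beside all genes depends on the fit. With the replicate number as a block, 20 members and 8210 genes in all were called, against 15 and 2761. Only the compared libraries gave 16 members and 6703 genes, and removal of the GC trend gave 17 members and 4633 of 13730 genes. In these fits calls rose more over all genes than among the members.

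The same exposure was measured again on top of DC and on top of TEPA, in libraries that the first comparison did not use. DC+IFN against DC gave 8 members lower and 4 higher, with 3.66% and 6.16% of all genes. TEPA+IFN against TEPA gave 11 lower and 2 higher, with 6.89% and 7.28% of all genes. The 12 calls on top of DC became fewer without any 1 of the 6 libraries, and 3 when only those libraries were fitted with the replicate block. That last fit called 554 genes in all, against 1439. The 13 on top of TEPA became fewer without the second TEPA+IFN library, 5 when only the 6 libraries were fitted, and 21 with the GC trend removed and the block added. The last 2 fits called 1186 genes in all and 5444 of 13730 tested, against 2076. Of the 63 members, 6 were called lower in all 3 comparisons (PCDHAC1, PCDHB3, PCDHB6, PCDHGA7, PCDHGB4 and PCDHGB7) and 2 higher in all 3 (PCDH15 and PCDH17), while 3.07% of all genes were called lower and 5.19% higher in all 3. No member was called in both directions, 37 were below 0 in all 3 and 7 above 0 in all 3. Median log2 fold changes of the members were -0.27, -0.30 and -0.26, and those of all genes 0.006, 0.012 and -0.0001.

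**Figure D2:**
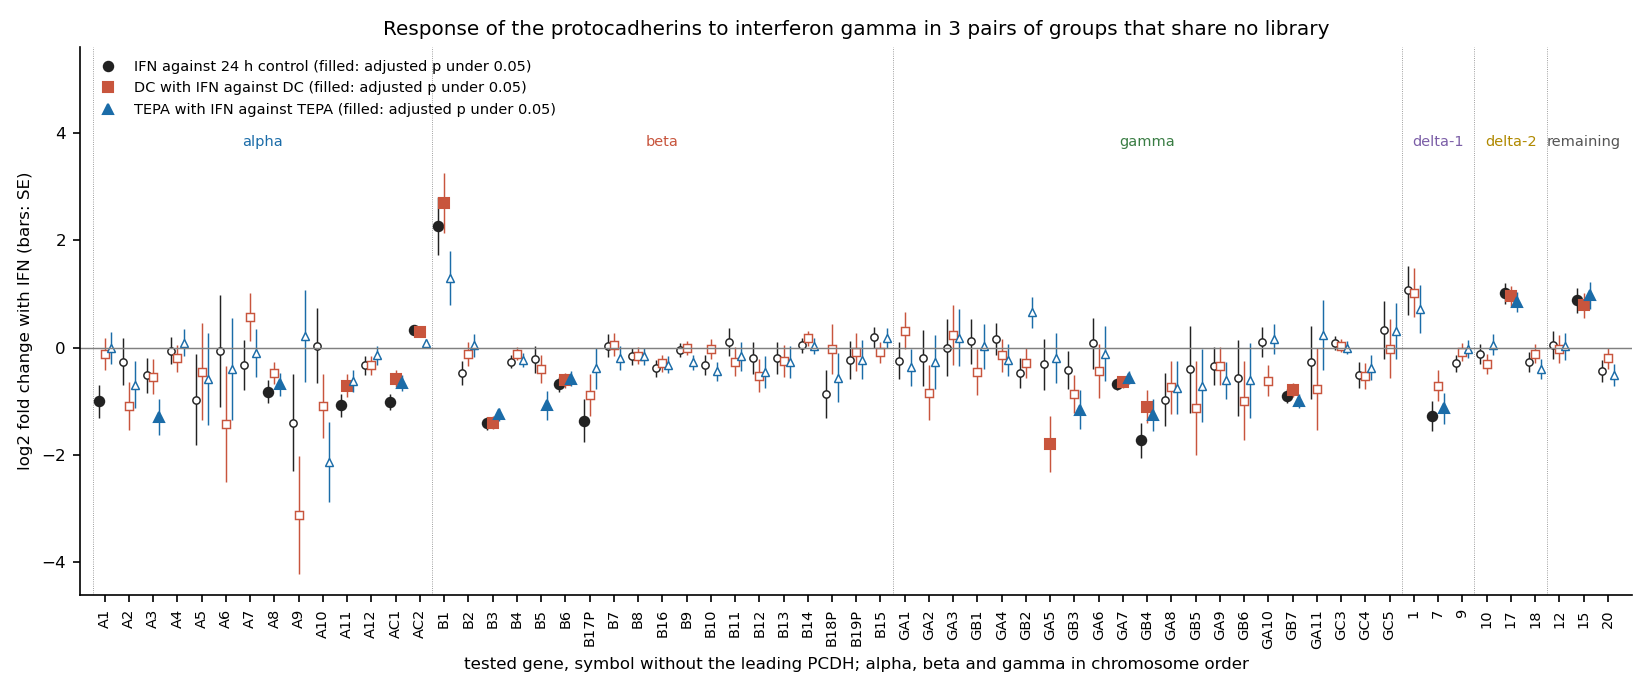
Log2 fold change with IFN (vertical axis, bars are SE) for the 63 tested members, in the comparisons with the 24 h control, with DC and with TEPA, which share no library. Filled symbols passed an adjusted p under 0.05; the 6 genes filled below 0 in all 3 comparisons lie in all 3 clustered sets, and PCDHB1 is the highest at 2.26 and 2.70.

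PCDHB3 had the clearest response. This beta protocadherin was at 26.8, 24.8 and 27.8 CPM in the 24 h control libraries and at 9.21, 11 and 9.69 CPM with IFN. With DC it was at 28.7, 22.9 and 29 CPM, and with DC+IFN at 10.9, 10.5 and 9.12. With TEPA it was at 30.4, 24.7 and 30.3 CPM, and with TEPA+IFN at 11.4, 12.8 and 11.9. The 9 IFN-treated libraries all lie below the 15 others. It fell by 1.41 ± 0.12 (log2, SE), by 1.40 ± 0.12 and by 1.24 ± 0.12 in the 3 comparisons, with adjusted p of 2.83e-08, 3.56e-08 and 1.85e-07 in edgeR, and kept its call in all 14 alternative fits of each.

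Its neighbours did not do the same. PCDHB6, also of the beta set, fell by 0.68 ± 0.13, 0.61 ± 0.13 and 0.58 ± 0.13. PCDHB14, the most abundant beta gene, was at 42.1, 34.2 and 43.8 CPM in the control and 42.0, 42.0 and 39.8 with IFN. Those groups overlap, and its log2 fold change of 0.04 had a 95% interval from -0.26 to 0.35, which lies wholly above that of PCDHB3 from -1.66 to -1.16. PCDHB9 had an interval from -0.32 to 0.24 and PCDHB4 from -0.52 to 0.01. PCDHB17P, a pseudogene, fell by 1.36 ± 0.39 with IFN alone, although its libraries overlap (0.14 to 0.48 against 0.40 to 1.09 CPM), and its call was lost without the first or the third control library or without the first or second IFN library. PCDHB5 was lower by 1.07 ± 0.27 with TEPA+IFN against TEPA and not called in the other comparisons.

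PCDHB1, another beta gene, went the other way. It had 4, 5 and 3 counts in the 24 h control libraries and 20, 13 and 23 with IFN, and 2, 2 and 5 counts with DC and 19, 14 and 23 with DC+IFN. With TEPA it had 9, 5 and 8 counts, and with TEPA+IFN 20, 12 and 19. These are few counts, yet the groups do not overlap in any of the 3 comparisons. It rose by 2.26 ± 0.53 (adjusted p = 0.00537) and by 2.70 ± 0.56 (adjusted p = 0.0025) in edgeR. On top of TEPA its log2 fold change was 1.30 ± 0.49 with an adjusted p of 0.0911, which became 0.0271 with the replicate number as a block.

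In the gamma set the most abundant genes called lower were PCDHGA7 and PCDHGB7. PCDHGA7 was at 35.9, 36.6 and 39.4 CPM in the 24 h control libraries and at 25.9, 23.6 and 20.8 with IFN. It fell by 0.67 ± 0.11, 0.64 ± 0.11 and 0.56 ± 0.11 (adjusted p = 0.000247, 0.000513 and 0.00167). PCDHGB7 was at 24.0, 24.0 and 21.7 CPM in the control and at 13.5, 12.8 and 11 with IFN, and fell by 0.90 ± 0.13, 0.79 ± 0.13 and 1.0 ± 0.13. For both genes every IFN-treated library lies below every library without IFN. PCDHGB4, at 0.95 to 1.39 CPM in the control and 0.18 to 0.45 with IFN, fell by 1.73 ± 0.33, 1.1 ± 0.31 and 1.26 ± 0.30. Its call on top of DC was lost without the first or second DC library or without the first or second DC+IFN library.

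The abundant C-type gamma genes showed no such call. PCDHGC3 was at 136, 129 and 123 CPM in the control and at 143, 145 and 122 with IFN, and these ranges overlap. Its log2 fold change was 0.09 with a 95% interval from -0.17 to 0.34. The base composition of the libraries bears on this value: after removal of the trend with GC content PCDHGC3 was at -0.35 with an adjusted p of 0.0268, and on top of DC it moved from 0.04 to -0.15. PCDHGC4 was at 24.6, 31 and 23.8 CPM in the control and at 18.5, 19.7 and 17.4 with IFN, without overlap. Its log2 fold changes of -0.51, -0.53 and -0.37 passed no test (adjusted p = 0.12, 0.218 and 0.318) but did so after removal of the GC trend, at -0.86, -0.68 and -0.62. PCDHGC5 had 0.33, -0.02 and 0.31, none called.

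Of the remaining gamma genes, PCDHGA5 was lower by 1.80 ± 0.52 with DC+IFN against DC only, a call lost in DESeq2 and without the first or the third DC library or the second or the third DC+IFN library. PCDHGB3 was lower by 1.16 ± 0.36 with TEPA+IFN against TEPA only, with overlapping libraries, a call lost without the third TEPA library or the first or second TEPA+IFN library. Whether these differ between comparisons was tested by the interaction terms described further on.

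In the alpha set the 2 C-type genes moved in opposite directions. PCDHAC1 was at 14.2, 15.2 and 15.1 CPM in the 24 h control and at 5.74, 7.48 and 8.77 with IFN, and fell by 1.01 ± 0.16, 0.58 ± 0.16 and 0.66 ± 0.16. Its call on top of DC was lost without the first or second DC library or the second or the third DC+IFN library. PCDHAC2, the other C-type alpha gene, was at 43.3, 38.3 and 38.9 CPM in the control and at 53.2, 51.6 and 46.7 with IFN. Those groups do not overlap, and it rose by 0.33 ± 0.08 with IFN (adjusted p = 0.00877) and by 0.29 ± 0.08 on top of DC (adjusted p = 0.03). Both calls are small and not robust: the first was lost without the second or the third control library or the first IFN library, and the second without the second or the third DC library or any 1 of the DC+IFN libraries. On top of TEPA its change was 0.08, with a 95% interval from -0.10 to 0.25.

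Among the alternate alpha genes, PCDHA11 fell by 1.07 ± 0.21 with IFN and by 0.71 ± 0.21 on top of DC. On top of TEPA it was at -0.62 (adjusted p = 0.0546), and 0.00613 with the replicate block. Its call on top of DC was lost without the first or the third DC library or the first or second DC+IFN library. PCDHA8 fell by 0.82 ± 0.21 with IFN, lost without the second IFN library, and by 0.68 ± 0.21 on top of TEPA, lost without the first or the third TEPA library or any 1 of the TEPA+IFN libraries. PCDHA1 fell by 1.0 ± 0.31 with IFN alone, lost without the third control library or the first or second IFN library. PCDHA3 fell by 1.29 ± 0.33 on top of TEPA alone, lost without the first TEPA or second TEPA+IFN library. PCDHA12, next in abundance among alpha genes, had -0.33, -0.33 and -0.15, none called. Since all alpha genes share their constant exons, a fall in one and a rise in another were not measured on independent reads.

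**Figure D3:**
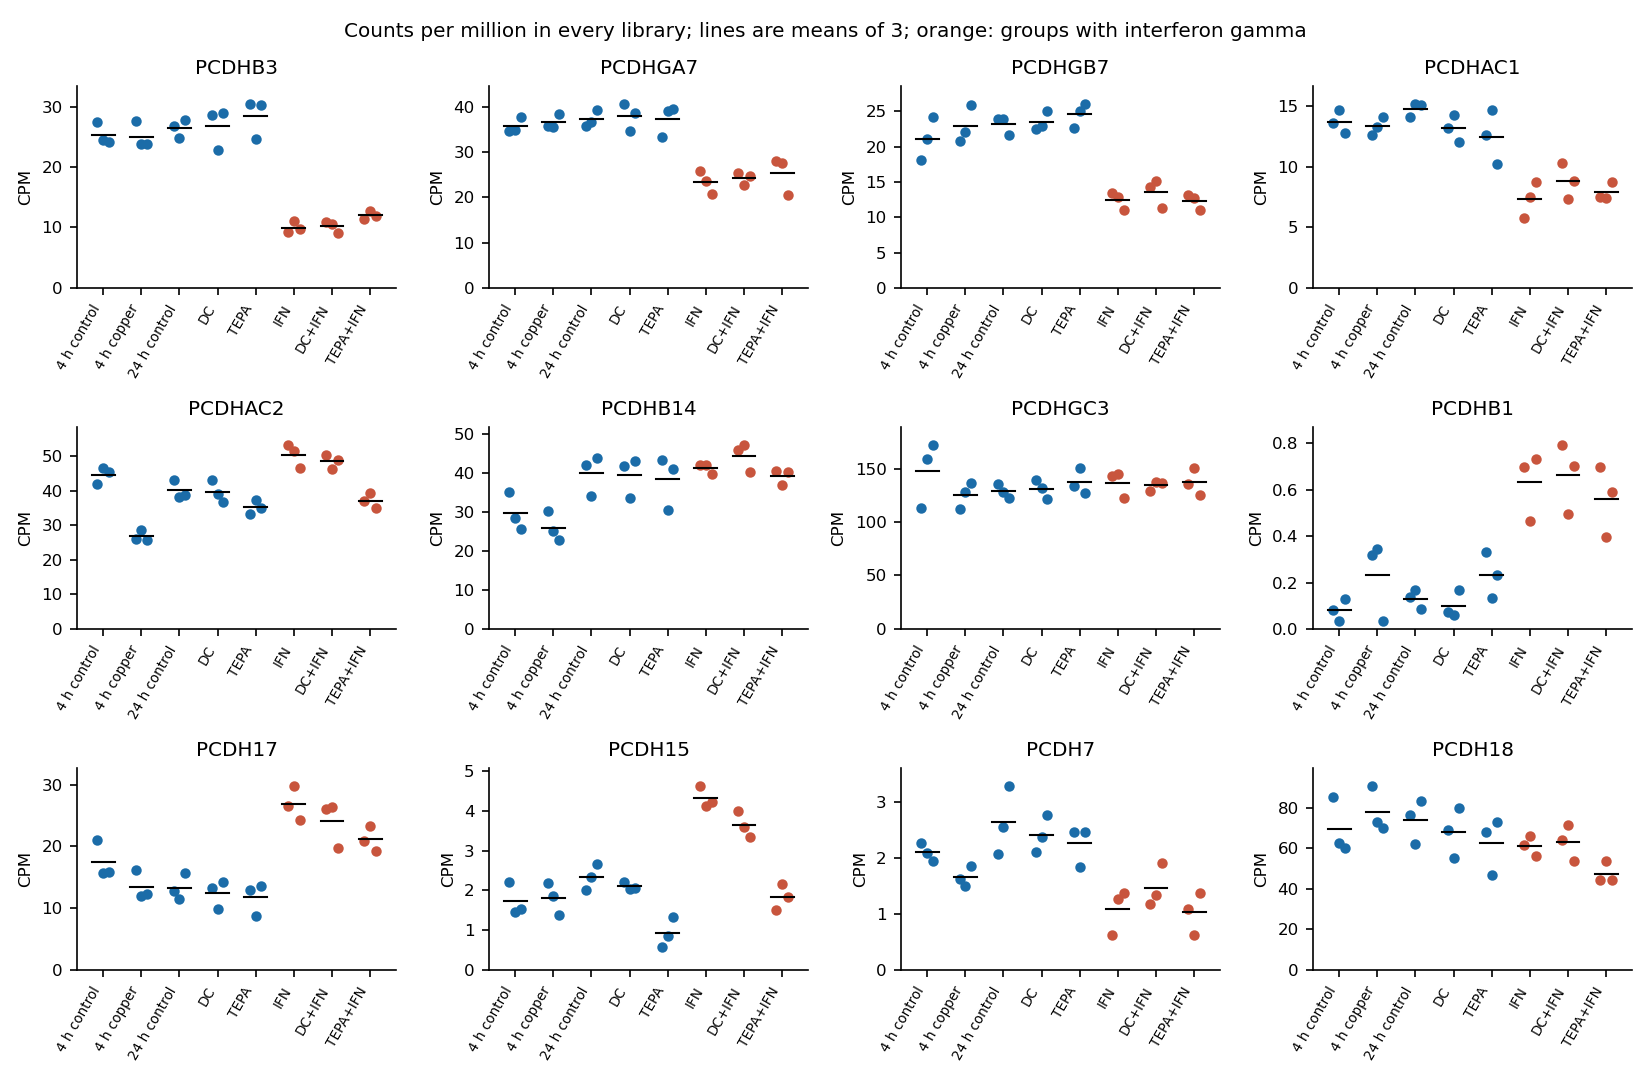
CPM in every library (vertical axes, each from 0) for 12 members across the 8 groups, with lines at the mean of 3; orange marks the groups with IFN. PCDHB3, PCDHGA7, PCDHGB7 and PCDHAC1 are lower in all 9 IFN-treated libraries than in the libraries of the matching group without IFN, PCDH17 is higher, and PCDHB14 and PCDHGC3 overlap.

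The summed levels of the 3 sets are given without a test. The alpha genes together were at 95.9 ± 6.1 CPM (SD, n = 3) in the 24 h control and 86.2 ± 0.2 with IFN, the beta genes at 153 ± 18 and 125 ± 4, and the gamma genes at 239 ± 6 and 211 ± 19. The change of the gamma sum depends on base composition: it was -0.18 (log2) with IFN, -0.21 on top of DC and -0.21 on top of TEPA, and -0.56, -0.37 and -0.47 after removal of the GC trend. The leading member took a larger share with IFN in each set. PCDHAC2 went from 41.9% ± 2.4 to 58.6% ± 4.1 of the alpha sum, PCDHB14 from 26.1% ± 0.4 to 33.0% ± 0.1 of the beta sum and PCDHGC3 from 54.1% ± 2.0 to 64.8% ± 0.6 of the gamma sum. With DC+IFN these shares were 54.7%, 33.8% and 65.1%, and with TEPA+IFN 48.2%, 32.6% and 63.7%. In each of the 3 sets the shares of the IFN-treated groups lie above those of the matching groups without IFN, without overlap.

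**Figure D4:**
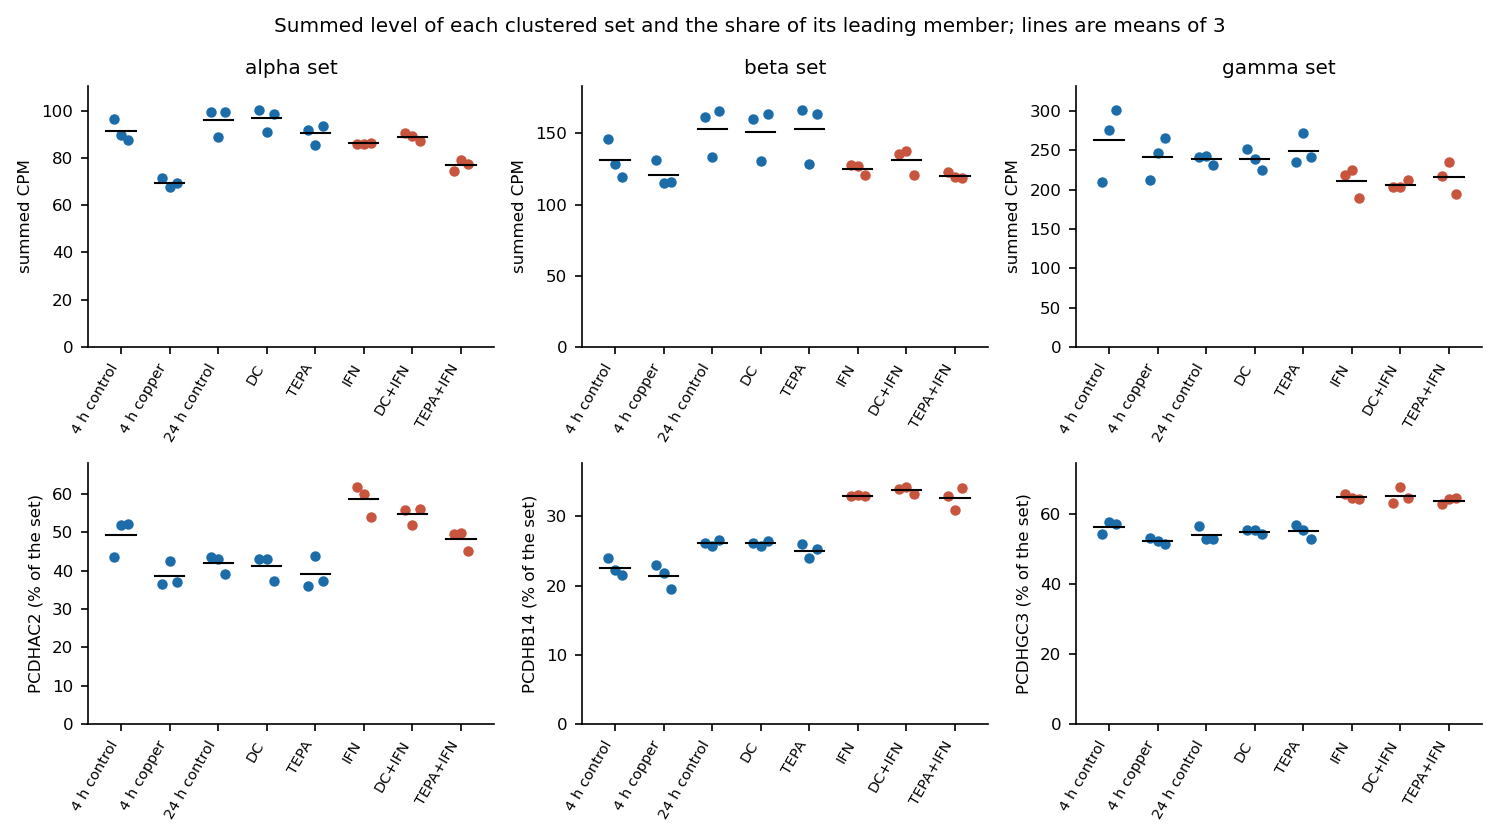
Upper row: summed CPM of the alpha, beta and gamma sets in every library; lower row: share of PCDHAC2, PCDHB14 and PCDHGC3 in their set (%). All axes start at 0, lines are means of 3, and orange marks groups with IFN. The share of the leading member is 58.6%, 33.0% and 64.8% with IFN against 41.9%, 26.1% and 54.1% in the 24 h control, and the copper libraries are lowest in the alpha sum at 69.5 CPM.

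Outside the clusters, single genes moved in both directions. PCDH17, a delta-2 protocadherin of growing axons, was at 12.8, 11.5 and 15.6 CPM in the 24 h control and at 26.5, 29.7 and 24.2 with IFN. It rose by 1.01 ± 0.19, 0.95 ± 0.19 and 0.85 ± 0.19 (adjusted p = 0.000813, 0.00193 and 0.00439), with no overlap in any of the 3 comparisons. PCDH15, a tip-link protein of hair cells, was at 2.0, 2.35 and 2.66 CPM in the control and 4.62, 4.13 and 4.23 with IFN. It rose by 0.88 ± 0.23, 0.79 ± 0.24 and 0.97 ± 0.25. Its calls were lost without the first control library, without any 1 of the 6 libraries on top of DC, and without the first TEPA or second TEPA+IFN library. PCDH7, a delta-1 protocadherin, was at 2.07, 2.55 and 3.27 CPM in the control and at 0.63, 1.26 and 1.37 with IFN. It fell by 1.27 ± 0.29 with IFN and by 1.13 ± 0.29 on top of TEPA, the latter lost without the second TEPA+IFN library, and was at -0.71 on top of DC (adjusted p = 0.144).

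The other non-clustered genes passed no test with IFN. PCDH18, the most abundant of them, was at 76.7, 62.2 and 83.2 CPM in the control and 61.6, 66.3 and 56.4 with IFN, which overlap, with a 95% interval of its log2 fold change from -0.65 to 0.11. PCDH9 had -0.30, -0.08 and -0.02, and after removal of the GC trend it was at 0.23 with an adjusted p of 0.014 on top of TEPA. PCDH10 had -0.12, -0.30 and 0.06, PCDH12 had 0.05, -0.02 and 0.02, and PCDH20 had -0.44, -0.20 and -0.51, which became a call at an adjusted p of 0.029 on top of TEPA with the replicate block. PCDH1 had 1.07, 1.03 and 0.72 at under 2 CPM. On top of TEPA the block also added PCDHA10, PCDHB10 and PCDHGC4 as lower.

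Other measures moved with IFN too. The summed level of 6 fibroblast and mesenchyme markers was 212 to 278 CPM in the 24 h control and 287 to 337 with IFN, with 5 of the 6 at 1 CPM or more on average. Of the 5 tested, 1 was called higher and 1 lower. PDGFRB rose from 37.3 ± 1.8 to 82.8 ± 24.9 CPM, and COL1A2 fell by 0.82 ± 0.22. The adrenergic markers summed to 2545 to 2630 CPM and 2266 to 2412 CPM, with 2 of the 12 tested called lower. These were DDC and STMN2, and STMN2 alone went from 1034 ± 55 to 668 ± 62 CPM. The median log2 fold change of the 12 was -0.02. The part of both marker lists in the protocadherin values was not tested. A smaller share of cells that express a gene and less of its RNA per cell cannot be told apart in these bulk samples.

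Genes that act on or with protocadherins were counted from lists. Of 26 regulators of the clustered loci, all tested, 2 were lower with IFN and none higher, beside 8.8% and 10% of all genes: CTCF by 0.24 ± 0.06 (log2, SE) and TET3, a DNA demethylase, by 0.34 ± 0.07. TET3 was lower on top of DC and TEPA as well, by 0.34 and 0.28, and it was the only regulator called there. Of 27 partners and proteases, 5 were higher and 2 lower with IFN. RET, a receptor kinase that binds clustered protocadherins, rose by 0.79 ± 0.09, 0.68 ± 0.08 and 0.56 ± 0.08. Of the gamma-secretase genes, which cleave protocadherins, APH1A rose by 0.54, 0.42 and 0.50, and PSENEN, PSEN2 and NCSTN rose with IFN alone. APH1B, also a gamma-secretase gene, was lower by 0.35 ± 0.11 on top of TEPA. There 2 of the 27 were higher and 2 lower, beside 7.28% and 6.89% of all genes, and NLGN1 fell by 0.73 ± 0.20. WASF1 and WASF3 of the WAVE actin complex fell with IFN. Of 22 tested other cadherins, 2 were higher and 1 lower with IFN, and 1 and 1 on top of DC. On top of TEPA 2 were higher and 5 lower, beside the shares of all genes just given. CLSTN2 fell by 2.05 ± 0.19, 2.13 ± 0.19 and 1.65 ± 0.18, and FAT4 rose in all 3 comparisons. FAT1 rose by 0.55 with IFN and by 0.51 on top of TEPA. On top of TEPA alone, FAT3 fell by 1.18 ± 0.38, CDHR1 by 0.83 ± 0.27, CDH20 by 0.74 ± 0.23 and CDH7 by 0.63 ± 0.20.

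Copper for 4 h lowered 1 member, PCDHAC2. It was at 42.1, 46.5 and 45.6 CPM in the 4 h control and at 26.1, 28.8 and 25.8 with copper, far apart. It fell by 0.73 ± 0.08 (adjusted p = 1.01e-05), while 5.85% of all genes were called in either direction. The summed adrenergic markers were at 2473 to 2758 CPM in the 4 h control and 2086 to 2438 with copper, without overlap. Of the 12 tested, 3 were called lower, namely HAND1, STMN2 and DDC, and the median log2 fold change was -0.14. STMN2 alone went from 802 ± 145 to 549 ± 77 CPM. The part of these markers in the PCDHAC2 value was not tested. No other tested member was called, and 4 members, PCDHAC2 included, had an unadjusted p under 0.05, beside 2367 of the 14654 genes. With the replicate block, PCDHGC3 was called as well, at -0.22 with an adjusted p of 0.0436. The alpha sum was 91.2 ± 4.6 CPM in the control and 69.5 ± 2.0 with copper, and without PCDHAC2 nothing in that set was called: PCDHAC1, for instance, had a 95% interval around its log2 fold change of -0.04, from -0.36 to 0.28. The call for PCDHAC2 was lost when only the 6 libraries of the comparison were fitted, at an adjusted p of 0.171 (all alternatives from 1.58e-14 to 0.171), a fit that called 61 genes in all against 857. Of the 26 regulators, 2 were lower with copper and 0 higher, beside the 5.85% of all genes: CTCF by 0.26 ± 0.06 and DNMT3B by 0.41 ± 0.09. Of the 27 partners and proteases, 2 were higher and 1 lower. FYN, a kinase of the pathway, rose by 0.47 ± 0.05 and WASF2 by 0.21 ± 0.06, and WASF3 fell by 0.47 ± 0.10. Of the 22 tested other cadherins, 1 was higher, FAT1 by 0.75 ± 0.13, and 0 lower. The part of these genes in the PCDHAC2 value was not tested.

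TEPA for 24 h lowered 2 members, with 1.06% of all genes called. PCDH15 was at 2.0, 2.35 and 2.66 CPM in the 24 h control and at 0.588, 0.849 and 1.33 with TEPA, without overlap, and fell by 1.33 ± 0.25 (adjusted p = 0.00958). Without the third control library it was no longer called. PCDHGB2 was at 3.06, 3.06 and 2.92 CPM and at 1.07, 1.11 and 1.31, and fell by 1.37 ± 0.28 (adjusted p = 0.023), a call lost without any 1 of the 6 libraries. The adrenergic markers summed to 2697 to 2710 CPM with TEPA, above the 2545 to 2630 CPM of the control, with 1 of 12 called higher; their part was not tested. In the presence of IFN, TEPA again lowered 2 members, with 1.9% of all genes called. PCDH15 was at 1.5, 2.15 and 1.84 CPM with TEPA+IFN, and fell by 1.24 ± 0.24 against IFN (adjusted p = 0.0081), lost without the first TEPA+IFN library.

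PCDHAC2 was the other gene lower with TEPA+IFN than with IFN. It was at 36.9, 39.5 and 35 CPM with TEPA+IFN against 53.2, 51.6 and 46.7 with IFN, and fell by 0.44 ± 0.08 (adjusted p = 0.00727), lost without the first IFN library. TEPA alone had it at 33.2, 37.4 and 35 CPM, with a log2 fold change of -0.19 that was not called (adjusted p = 0.448). These comparisons share libraries with those of IFN and are not independent of them. The difference between the 2 TEPA effects was tested itself and was -0.25 for PCDHAC2 (95% interval from -0.50 to -0.01, unadjusted p = 0.0451, adjusted p = 1.0) and 0.09 for PCDH15. Of the 27 partners and proteases, 1 was higher and 1 lower with TEPA, beside 1.06% of all genes called. CYFIP2 of the WAVE complex rose by 0.55 ± 0.08, and FYN fell by 0.23 ± 0.05. With TEPA+IFN against IFN, 1 was higher and 0 lower, beside 1.9% of all genes: CYFIP2 rose by 0.62 ± 0.08.

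The 2 copper chelators can be compared over the same time, though their doses are not in the labels. DC called none of the 63 members in edgeR, with 1 at an unadjusted p under 0.05, none in DESeq2 and 0.0136% of all genes called. Of the 14654 genes, 135 had an unadjusted p under 0.05 with DC. PCDH15 was at 2.05 to 2.22 CPM with DC, within the 2.0 to 2.66 CPM of the control. DC+IFN against IFN likewise called none in edgeR or DESeq2, with 4 members at an unadjusted p under 0.05 and 0.0205% of all genes called. Of the 14654 genes, 336 had an unadjusted p under 0.05 there. The 95% intervals of the log2 fold change with DC were -0.19 to 0.16 for PCDHAC2 and -0.23 to 0.28 for PCDHGC3. These intervals are not limits of detection for a call adjusted over 14654 genes, and both genes are among the most abundant members. Changes with DC that passed no test therefore remain possible, above all in low members. DC and TEPA were not compared directly.

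Whether DC or TEPA altered the IFN response was tested with interaction terms. Neither gave a called member in edgeR or in DESeq2. Over all genes 0.0% were called for each term in the main edgeR fit, and DESeq2 called 2 genes for DC and 0 for TEPA. For TEPA, 5 genes were called with the replicate block, 6 with the GC trend removed and 26 with both, with 0 members among them. At an unadjusted p under 0.05 there were 0 members for DC and 5 for TEPA, beside 142 and 205 of the 14654 genes.

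Time in culture was the last contrast. Between the 24 h and 4 h controls 9.69% of all genes were called, and 1 member, PCDH20, was higher at 24 h. It was at 5.13, 4.44 and 3.74 CPM at 4 h and 8.66, 7.49 and 8.25 at 24 h, and rose by 0.88 ± 0.20 (adjusted p = 0.011), lost without the third 4 h control library. Among beta genes 18 of 19 had a log2 fold change above 0, with a median of 0.19 beside -0.008 over all genes, and none was called. The count depends on the first 4 h control library, the one lowest in GC-rich genes: without it 9 members were called. The share of all genes called in that fit is not given here. DESeq2 called 4 members, namely PCDH20, PCDHA11, PCDHB14 and PCDH10, and 2510 genes in all, against 1420 in edgeR. Of the 26 regulators, 1 was lower and 1 higher at 24 h, beside the 9.69% of all genes: DNMT3A fell by 0.42 ± 0.13 and NSD1 rose by 0.31 ± 0.07. Of the 27 partners and proteases, 1 was lower, PSEN2 by 1.13 ± 0.31, and 0 higher. Of the 22 tested other cadherins, 3 were higher and 1 lower. CDH4 rose by 1.73 ± 0.54, FAT3 by 1.67 ± 0.38 and FAT4 by 0.65 ± 0.18, and CDH11 fell by 0.75 ± 0.16.

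Over all 11 comparisons, 21 of the 63 tested members were called at least once and 42 were never called, a share close to the 31.7% of all genes called at least once. By set, 6 of 14 alpha, 5 of 19 beta and 6 of 21 gamma genes were called in some comparison, as were 4 of the 9 non-clustered genes (1 delta-1, 1 delta-2 and 2 of the remaining ones).

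**Figure D5:**
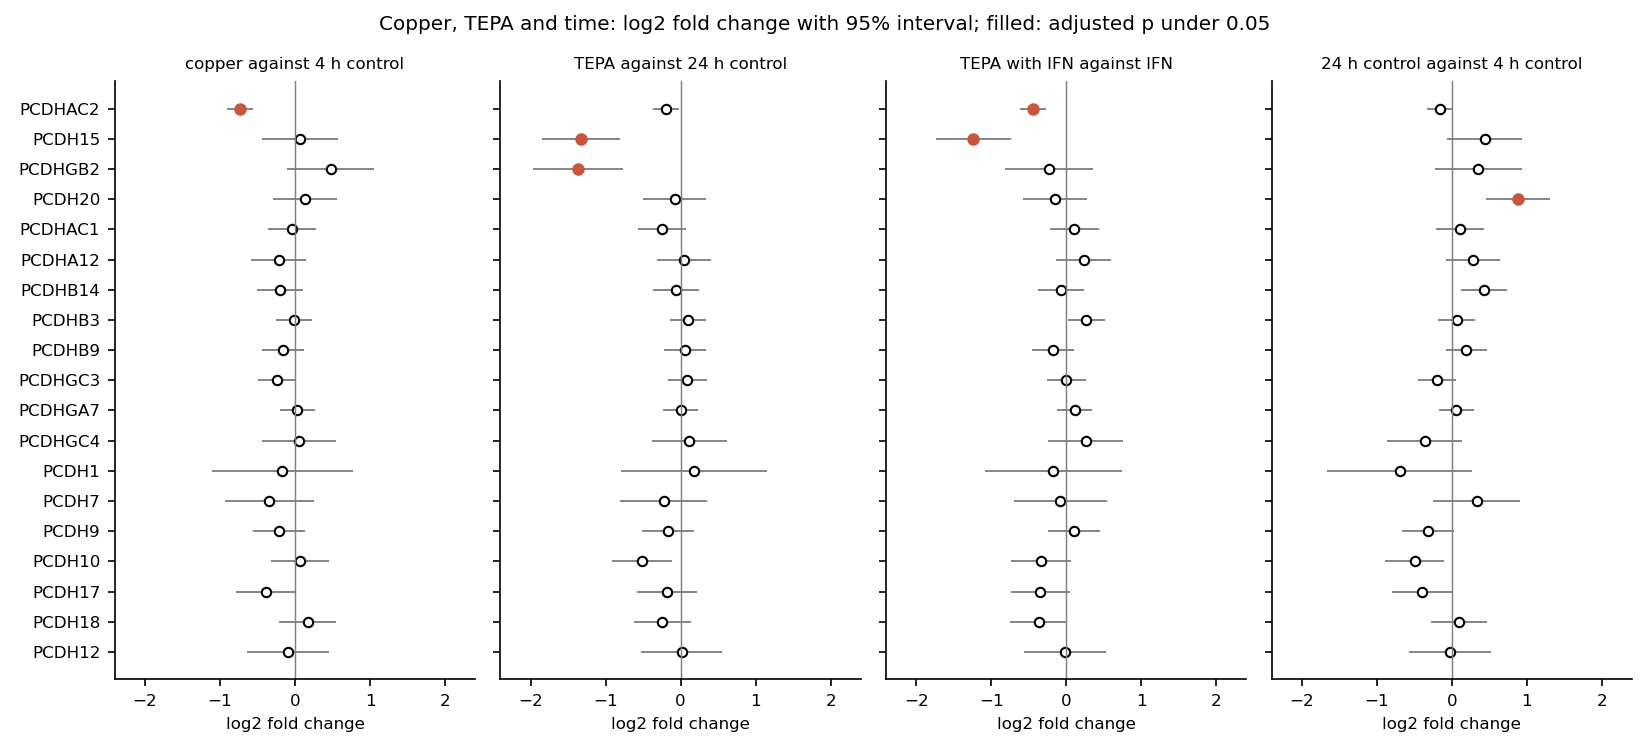
Log2 fold change (horizontal axes) with its 95% interval for 19 members with copper, with TEPA, with TEPA+IFN against IFN, and between the 24 h and 4 h controls. Filled points passed an adjusted p under 0.05: PCDHAC2 at -0.73 with copper and -0.44 with TEPA+IFN, PCDH15 at -1.33 and -1.24, PCDHGB2 at -1.37 and PCDH20 at 0.88.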

How the data were processed

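The authors deposited unnormalized whole-number counts for each gene symbol in 24 libraries. STAR 2.5a, RSEM 1.2.31 and build hg38 are named in the submitters' processing notes; annotation, strand setting and filters are not given in the sources used here. Per the labels, column-purified RNA went into stranded mRNA libraries. Members and lists were chosen with earlier results of these data known.

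From the counts, genes were filtered with filterByExpr of edgeR 4.0.16 (minimum count 10, R 4.3.3), leaving 14654, and scaled with TMM. A quasi-likelihood model with 1 mean per group was fitted to all 24 libraries (16 residual degrees of freedom). There were 11 contrasts. A call is a Benjamini-Hochberg adjusted p under 0.05 over all tested genes, and values after ± are SE for log2 fold changes and SD (n = 3) for levels. CPM used TMM-scaled totals. The fit was tested on simulated counts. Interval and depth statements cover the spread between these libraries, and the totals of 24569980 to 35372442 counts limit the low members. Named are all members called in any contrast, all tested non-clustered members and the 3 most abundant of each clustered set; other members are named where a value is singled out. Alternatives were DESeq2 1.42.0, its size factors in edgeR, no filter, the trend with GC content removed, the replicate number as a block, only the libraries compared, and leaving out each library. Gene models were GENCODE 29 (23899 symbols matched, 90.2%). Promoter windows were also searched for other short motifs, which are not reported here. Replicate numbers were taken to pair libraries where same-numbered libraries deviated together in every pair (correlation over 0.1): copper (0.87, 0.35 and 0.82), DC (0.15, 0.55 and 0.23), TEPA (0.36, 0.57 and 0.23) and TEPA+IFN against TEPA (0.29, 0.56 and 0.23).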

Additional observations from a re-analysis of the deposited data

How the results depend on the processing

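The direction of no member's called change reversed under any alternative run. Counts of called members are given first in the model of all 24 libraries. With the replicate block they went from 1 to 2 for copper, from 2 to 4 for TEPA+IFN against IFN and from 1 to 3 for the 24 h against the 4 h control. Calls over all genes went from 857 to 2291, from 279 to 1060 and from 1420 to 2254 in these 3. In the last 2, as for IFN, DC+IFN against DC and DC+IFN against IFN, the replicate numbers share only a number. With the GC trend removed the members called were 6 for TEPA+IFN against IFN and 8 for the 24 h control, beside 1922 and 3771 of 13730 genes. With the block added they were 2 for copper, 7 for TEPA+IFN against IFN, 8 for the 24 h control and 21 for TEPA+IFN against TEPA (13 before). Those 4 fits called 3843, 2706, 4246 and 5444 genes in all. Fitting only the libraries compared gave 0 members for copper, 0 for TEPA, 1 for TEPA+IFN against IFN, 5 for TEPA+IFN against TEPA and 0 for the 24 h control. In that order 61, 0, 121, 1186 and 1 genes were called in all. Adding the block to that gave 3 members for copper, 1 for TEPA, 10 for TEPA+IFN against IFN, 3 for DC+IFN against DC (12 before) and 0 for the 24 h control. Those fits called 2547, 247, 2777, 554 and 0 genes in all. DESeq2 gave 4 members for the 24 h control and 2510 genes in all. Without 1 library the counts of called members ran from 1 to 2 for copper, 0 to 1 for TEPA, 12 to 16 for IFN (15 before), 1 to 2 for TEPA+IFN against IFN, 7 to 8 for DC+IFN against DC, 8 to 18 for TEPA+IFN against TEPA and 0 to 9 for the 24 h control. The summed gamma level, with the GC trend removed, moved from 0.06 to -0.058 (log2) with TEPA, from -0.18 to -0.56 with IFN, from -0.21 to -0.37 on top of DC and from -0.21 to -0.47 on top of TEPA; the cause was not tested. Low counts limit PCDHB1, PCDHGB4 and PCDHB17P, and shared exons limit every tested alpha and gamma gene.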
